A study of Mus musculus with 12 samples.

Results

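The 12 livers of this series were divided by their level of Socs2 within each genotype, and 6 livers with high Socs2 were compared with 6 livers with low Socs2. All 12 came from female mice killed in the morning at 3 weeks of age, at weaning. They were 6 wild-type mice (WT) and 6 mice with a global knockout of Lcorl (Lcorl KO, here KO), which lack the gene in every tissue and not in the liver alone. The protein made from Lcorl resides in the nucleus and resembles the corepressor Lcor. The 3 WT and the 3 KO livers with the most Socs2 form the high class (WT 5, WT 3, WT 1, KO 5, KO 6 and KO 2), and the remaining 3 of each genotype form the low class (WT 6, WT 2, WT 4, KO 3, KO 4 and KO 1). The labels name neither a hormone treatment nor a hormone level. The members of each class were chosen by the measured Socs2 values, so Socs2 itself is described and not tested.

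Growth hormone leaves the pituitary gland in pulses. In hepatocytes it binds the growth hormone receptor, which activates the kinase JAK2 and the transcription factors STAT5A and STAT5B. STAT5 then drives genes such as Igf1, the circulating growth factor, and Socs2 and Cish, whose proteins bind the receptor complex and end the signal. Because Socs2 and Cish RNA follow a pulse within hours, their level in a single sample is commonly read as a sign of how recently growth hormone acted. The pattern of pulses also sets many of the differences between female and male liver.

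Socs2 varied more among WT than among KO livers. In normalized counts, WT 5 measured 2596, WT 3 measured 1235 and WT 1 measured 625 in the high class, and WT 6 measured 430, WT 2 measured 311 and WT 4 measured 61.2 in the low class. Among KO livers the high class held 1476 (KO 5), 1435 (KO 6) and 686 (KO 2), and the low class held 472 (KO 3), 413 (KO 4) and 260 (KO 1). The members just inside and just outside the division were therefore 625 and 430 in WT, and 686 and 472 in KO. A normalized count is the number of reads of a gene divided by a factor for the depth of its library.

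Depth did not separate the classes, with 22788516 to 30077708 reads per library in the high class and 21769795 to 31296485 in the low class. Lcorl read 234 to 308 normalized counts in WT and 0 to 2.83 in KO. The hepatocyte marker Ttr lay between 113155 and 179990 normalized counts in all 12 libraries. KO 2 stood apart from the rest. It held 126 normalized counts of the pancreas gene Reg1, which was at 0 in the other 11 libraries. Another pancreas gene, Cela1, went the other way and was lowest in KO 2, at 128 against up to 503 elsewhere. KO 2 also read 152826 of the acute phase gene Serpina3n against at most 42089 elsewhere, and 301 of the bile duct keratin Krt19 against at most 83.9. WT 6 held the fat gene Adipoq at 53.4, against at most 1 in the others. Where leaving out KO 2 moved a difference over both genotypes, or the number of a list's genes at an unadjusted p under 0.05, by over 1.5 times, the value without it is given as well. These libraries are bulk tissue, in which fewer cells of a type and less RNA per cell cannot be told apart.

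Cish, the other feedback gene of this pathway, lies at chr9:107296026-107302784 on the plus strand (GRCm38, GENCODE M21). STAT5 dimers recognise the palindrome TTCNNNGAA, which reads the same on both strands. In RefSeq windows of 300 bases, from 250 before to 50 after a gene's start, this motif occurred in 8.30% of 32851 windows, and 2 or more copies occurred in 0.457%. The following windows (GRCm38.p6) are shown as examples that hold the motif, from growth hormone targets described next, with each match in capitals. That of Cish is chr9:107296409-107296708 on the plus strand. That of Igfals is chr17:24877981-24878280 on the plus strand and is 1 of 3 listed for the gene. That of A1bg is chr15:60921221-60921520 on the minus strand.
Cish: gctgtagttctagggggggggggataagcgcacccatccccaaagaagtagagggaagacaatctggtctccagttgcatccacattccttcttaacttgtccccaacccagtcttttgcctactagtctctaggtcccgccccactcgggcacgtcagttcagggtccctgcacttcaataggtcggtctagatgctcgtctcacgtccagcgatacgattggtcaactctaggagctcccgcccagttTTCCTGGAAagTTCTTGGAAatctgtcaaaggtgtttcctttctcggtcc
Igfals: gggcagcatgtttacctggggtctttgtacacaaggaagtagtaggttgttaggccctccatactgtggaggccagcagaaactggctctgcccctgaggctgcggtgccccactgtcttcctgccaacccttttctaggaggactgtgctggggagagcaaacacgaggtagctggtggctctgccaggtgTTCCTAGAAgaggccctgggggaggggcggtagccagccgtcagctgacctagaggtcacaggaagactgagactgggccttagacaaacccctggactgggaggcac
A1bg: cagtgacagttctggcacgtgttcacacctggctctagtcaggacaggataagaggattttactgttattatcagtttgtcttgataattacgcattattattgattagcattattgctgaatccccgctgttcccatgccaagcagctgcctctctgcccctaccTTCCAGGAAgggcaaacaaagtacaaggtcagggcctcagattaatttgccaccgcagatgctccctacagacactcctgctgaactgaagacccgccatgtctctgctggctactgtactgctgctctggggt
The Cish window held 2 motifs, TTCCTGGAA at the RefSeq start, which lies inside the GENCODE gene, and TTCTTGGAA 11 bases after it. The Igfals window held TTCCTAGAA at 58 bases before its start and the A1bg window TTCCAGGAA at 84 bases before. Of 2 Bcl6 windows with a match, 1 held 3 motifs, and a Prlr window held 1. No match was found in the windows of Onecut1, Igf1 and Slc25a30, which says only that these letters are not in those windows. A window was listed for 53 of 67 genes, which are Socs2 and the genes compared between the classes here. Of these 53, 10 held the motif in at least 1 window. Some genes have several windows, so this count of genes cannot be set against the 8.30% of single windows.

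Cish was higher in the high Socs2 livers of WT, and less uniformly in KO. The high WT livers read 3924 (WT 5), 1866 (WT 3) and 2163 (WT 1) normalized counts, and the low WT livers 319 (WT 6), 645 (WT 2) and 171 (WT 4). The KO values were 1488 (KO 5), 1909 (KO 6) and 259 (KO 2) in the high class and 653 (KO 3), 177 (KO 4) and 621 (KO 1) in the low class. The WT classes did not overlap, whereas KO 2 lay below 2 of the 3 low KO livers. Averaged over the genotypes, the difference was 2.03 on the scale of log2(normalized count + 1), which is 4.07-fold. An exact two-sided permutation test, in which the class was reassigned within each genotype in all 400 ways, gave p = 0.02 (the smallest possible value is 0.005). Without KO 2 the difference was 2.47 and the exact p was 0.005. The exact p was 0.06 without KO 4, 0.05 without KO 5 and 0.055 without KO 6. Ranking the livers by Cish in place of Socs2 would put 10 of 12 livers in the same class and would exchange KO 2 with KO 3.

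**Figure D1:**
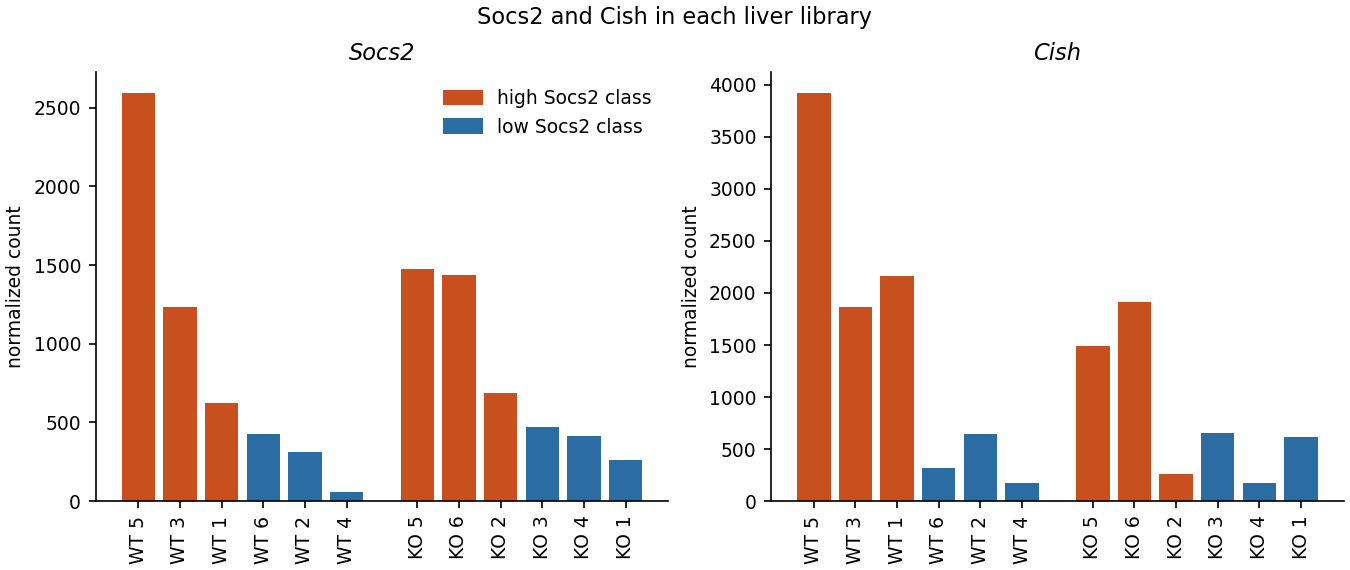
Normalized counts of Socs2 (left, used to form the classes) and Cish (right) in each liver, with libraries on the horizontal axis in order of Socs2 within genotype and bars coloured by class. Cish reads 1866 or more in the 3 high WT livers and 645 or less in the 3 low ones, while KO 2, in the high class, reads 259.

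Across the transcriptome no gene passed the test of high against low. limma was fitted to log2(normalized count + 1) with genotype and class as terms over 13568 genes with a mean of at least 10. With Benjamini-Hochberg adjustment over all of them, 0 genes had an adjusted p under 0.05 (0%), and the smallest adjusted p was 0.222. At an unadjusted p under 0.05 there were 377 genes with higher values in the high class (2.78%) and 376 with lower values (2.77%). By edgeR's quasi-likelihood test on recovered reads, 0 genes were called and 773 had an unadjusted p under 0.05. DESeq2 on the same reads called 28 of 13531 genes (0.207%), 19 higher and 9 lower, with 854 at an unadjusted p under 0.05. The values below are therefore descriptions unless a test is named as passed, and the unadjusted shares are the background against which a list is read. The median difference over all genes was -0.00117, and 49.7% of genes had a positive one.

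The direct response to growth hormone was represented by a list of 28 genes, of which 26 were measured well enough to test. Their median difference was 0.38, and 18 were higher in the high class. At an unadjusted p under 0.05, 8 of the 26 were higher (30.8%, against 2.78% of all genes) and 1 was lower (3.85%, against 2.77%). No member passed in limma. The WT classes did not overlap for 9 members that were higher and 3 that were lower, against 4.82% and 4.64% of all genes. The KO classes did not overlap for 2 higher and 1 lower member, against 4.26% and 4.2%. Without KO 2 the median was 0.27, with 10 members higher and 4 lower at an unadjusted p under 0.05, against 4.06% and 4% of all genes. With any 1 library left out, 6 to 10 members were higher and 1 to 4 lower at that level.

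**Figure D2:**
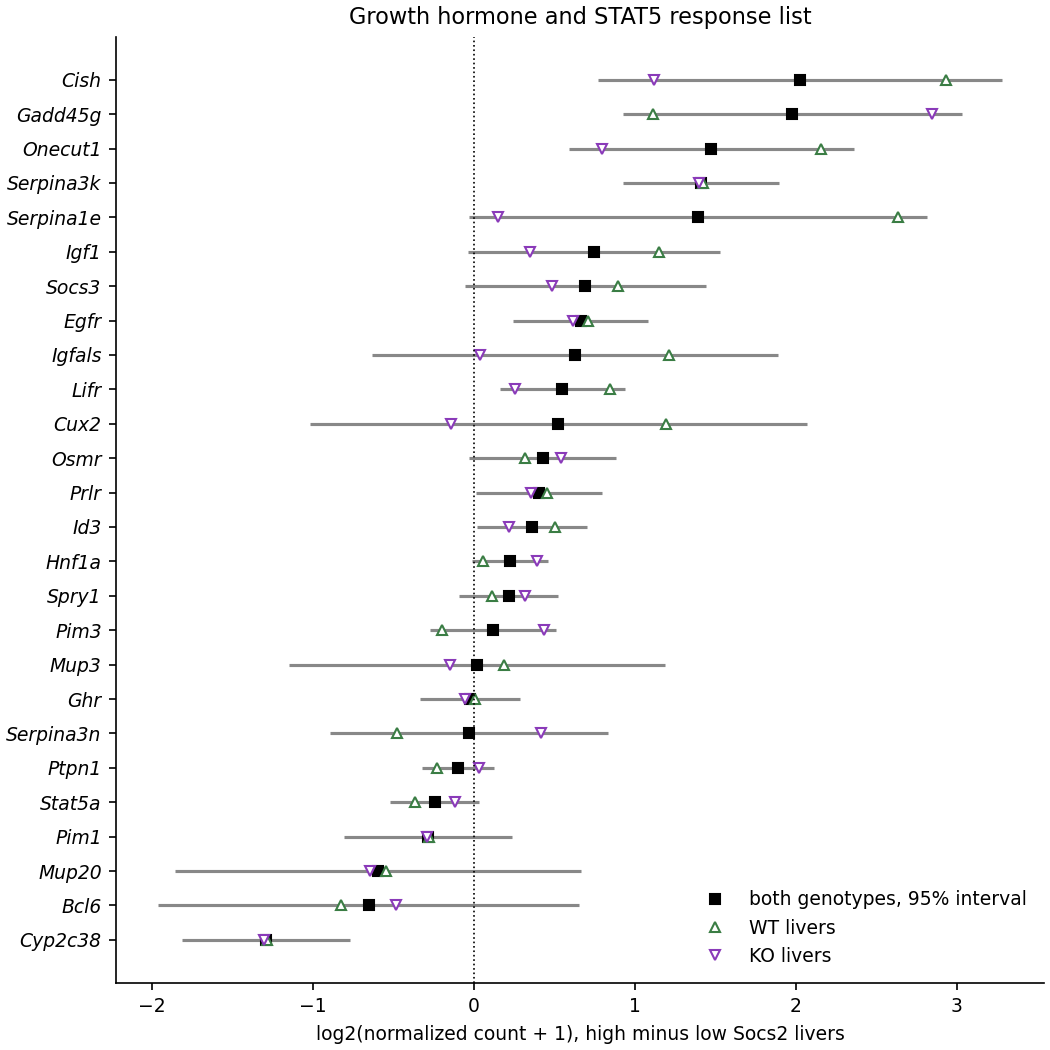
Difference between high and low Socs2 livers for the 26 tested genes of the growth hormone and STAT5 response list, on the scale of log2(normalized count + 1). Squares give both genotypes together with the 95% interval, upward triangles WT and downward triangles KO; Cish is at the top with 2.03 and Cyp2c38 at the bottom with -1.29.

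Among the secreted products of the response, Serpina3k stood out. It encodes a serine protease inhibitor that hepatocytes release into blood, and it has close relatives in its gene cluster with which it may share reads. The high WT livers measured 233364 (WT 5), 222280 (WT 3) and 281292 (WT 1) normalized counts, against 92247 (WT 6), 129888 (WT 2) and 62960 (WT 4) in the low class. In KO the high livers measured 56098 (KO 5), 87215 (KO 6) and 57892 (KO 2), and the low livers 18855 (KO 3), 20309 (KO 4) and 40556 (KO 1). The classes did not overlap in either genotype. The difference was 1.42 in WT and 1.40 in KO, and 1.41 in all (SE 0.22, limma adjusted p = 0.222). DESeq2 called it with an adjusted p of 5.98e-06. Serpina1e, a second inhibitor gene from a family of near copies, differed by 2.63 in WT and 0.15 in KO.

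Igf1 was higher in the high WT livers but not throughout KO. It measured 26646 (WT 5), 22926 (WT 3) and 20802 (WT 1) against 15365 (WT 6), 12283 (WT 2) and 6159 (WT 4). KO 5 and KO 6 read 9840 and 12892 and KO 2 read 2670, the lowest of all 12, against 5998 (KO 3), 4147 (KO 4) and 6611 (KO 1). The difference over both genotypes was 0.75 (95% interval -0.04 to 1.53, limma adjusted p = 0.880), and it was 1.10 without KO 2. Igfals encodes the acid-labile subunit that holds IGF1 in the blood. Its WT values were 3799 (WT 5), 3776 (WT 3) and 2409 (WT 1) against 1616 (WT 6), 1905 (WT 2) and 902 (WT 4), without overlap. KO 2 had 99 normalized counts of Igfals, where the other 5 KO livers had 368 to 1684. The Igfals difference was 0.63 with KO 2 and 1.25 without it.

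Of the transcription factors, Onecut1, which encodes HNF6, had values of 112, 97.6 and 56.4 in the high WT livers (WT 5, WT 3 and WT 1). The low WT livers had 11.4 (WT 6), 26.2 (WT 2) and 20.4 (WT 4). KO 5 and KO 6 had 33.9 and 30.1, above the 9.32 to 12.8 of the low KO livers, whereas KO 2 had 6.93. The difference was 1.48 (SE 0.41, limma adjusted p = 0.767), and DESeq2 called it with an adjusted p of 0.00993. Without KO 2 it was 1.86. Bcl6, a repressor that counters STAT5, ranged from 134 to 1535 over the 12 livers, with overlap in both genotypes and a difference of -0.65 (95% interval -1.96 to 0.65), or -1.09 without KO 2. Id3, an inhibitor of helix-loop-helix factors, differed by 0.36.

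Cyp2c38, a cytochrome P450 gene of the same list, ran the other way. Its values were 14.6 to 26.3 in the high WT livers and 38.1 to 54.4 in the low ones. The KO values were 25.4 to 34.7 in the high class and 40.4 to 110 in the low class, so all 6 high livers lay below all 6 low ones. The difference was -1.29 (SE 0.24, limma adjusted p = 0.246), and DESeq2 called it with an adjusted p of 9.81e-04. It belongs to a family of near copies. Gadd45g, a growth arrest gene, differed by 2.84 in KO, where the high livers had 705 to 1285 and the low livers 70.4 to 323. In WT its classes overlapped and the difference was 1.12.

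The receptors and the kinase did not share one direction. Ghr, the growth hormone receptor, ranged from 6488 to 14039 normalized counts and differed by -0.024 (95% interval -0.33 to 0.29). Its sign was positive without KO 2, at 0.11. Jak2 differed by -0.10 (interval -0.27 to 0.07), Stat5a by -0.24 (interval -0.52 to 0.04) and Stat5b by 0.17 (interval -0.14 to 0.47). Without KO 2, which had the most Stat5b of the KO livers, the Stat5b difference was 0.049, and that of Stat5a was -0.36. A change in their RNA larger than those bounds was not covered by the 95% intervals. Lifr, the receptor for leukaemia inhibitory factor, had 8467 to 9715 in the high WT livers and 4386 to 5961 in the low ones. Its KO values overlapped, with KO 2 lowest at 2702, and the difference over both genotypes was 0.55 (limma adjusted p = 0.774). Prlr, the prolactin receptor, differed by 0.41 and Egfr, the epidermal growth factor receptor, by 0.66.

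Over the receptor signalling list, which adds adaptors, phosphatases and the other SOCS genes, 30 of 31 members were tested. The median difference was -0.02. At an unadjusted p under 0.05, 2 members were higher and 2 lower (6.67% each, against 2.78% and 2.77% of all genes). Without KO 2 there were 2 higher and 4 lower (6.67% and 13.3%, against 4.06% and 4%). Those lower with all libraries were Sirpa (-0.29), a receptor that recruits phosphatases, and Ptpn6 (-0.19), such a phosphatase. Both are known from leukocytes. The feedback gene Socs3, which also responds to interleukin signals, differed by 0.69. Its largest value, 1059, was in KO 2, and the other 11 livers had 159 to 839.

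Among the 16 tested genes of the IGF axis, 1 was higher at an unadjusted p under 0.05 (6.25%, against 2.78% of all genes). At that level 0 were lower (against 2.77%), and the median of the list was 0.07. Without KO 2 there were 4 higher of 16 (25%, against 4.06% of all genes). The gene at that level with all libraries was Igf2, the fetal growth factor, with a difference of 0.90 (95% interval 0.19 to 1.62, limma adjusted p = 0.830). Its classes overlapped in both genotypes. Igfbp3, the main carrier of IGF1 in blood, differed by 0.19, and by 0.44 without KO 2. Igfbp2 differed by -0.12 (interval -0.44 to 0.20). Igfbp1, a binding protein under the control of insulin, differed by 0.23 over both genotypes, a value with no stable sign (-0.032 without KO 2, and -0.14 to 1.14 with any 1 library left out). Its high KO livers had 15840 to 47869 normalized counts and its low KO livers 5242 to 11148, without overlap. The WT classes of Igfbp1 overlapped widely, from 200 to 10839 in the high class and from 2738 to 12600 in the low class.

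**Figure D3:**
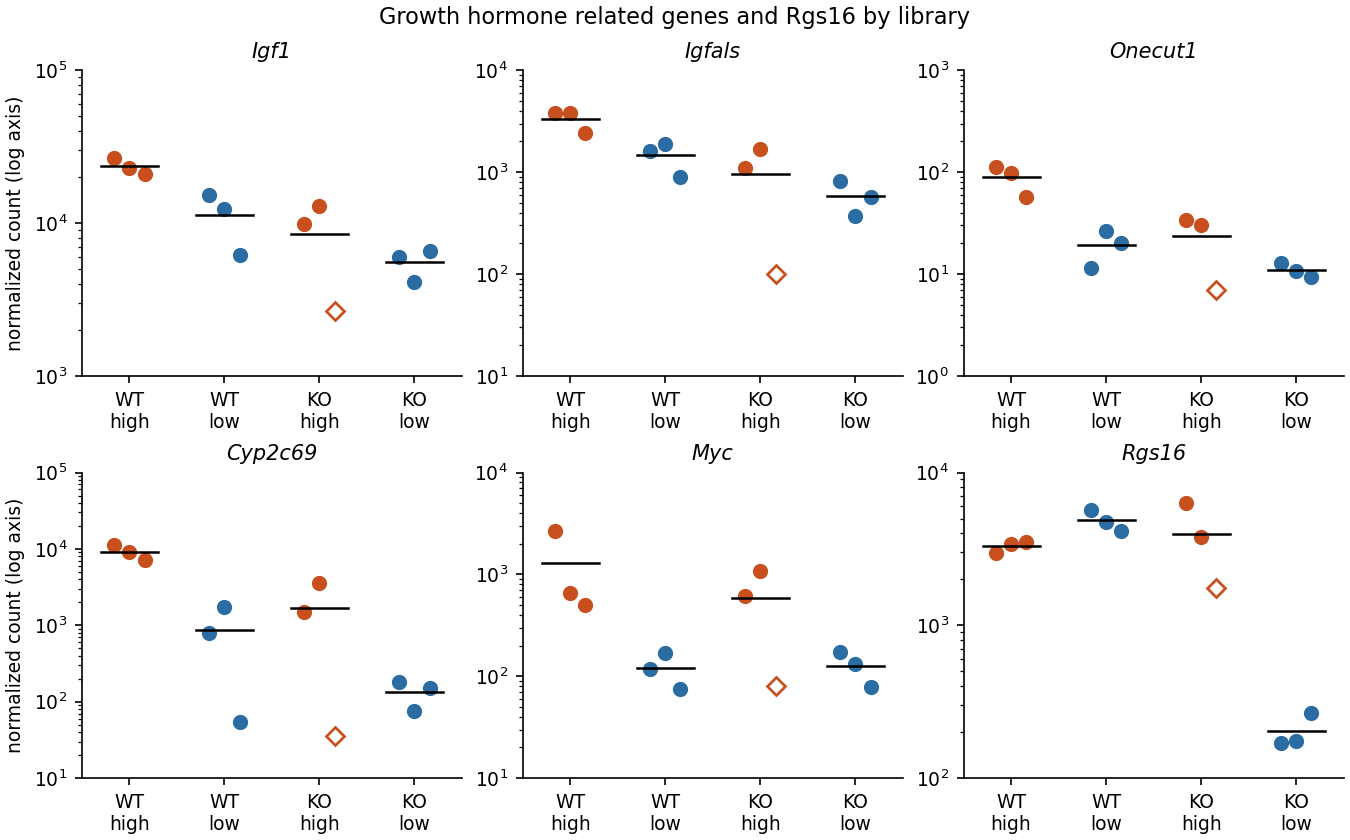
Normalized counts on a log axis of Igf1, Igfals, Onecut1, Cyp2c69, Myc and Rgs16 by genotype and Socs2 class, with 1 point per liver, a line at the mean of each 3 livers and an open diamond for KO 2. KO 2 is the lowest KO liver for Igf1 (2670), Igfals (99), Onecut1 (6.93) and Cyp2c69 (35.6), and the high and low KO livers do not overlap for Rgs16.

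Genes with higher expression in female than in male liver, which depend on the female pattern of growth hormone, were followed as a separate list. Of 24 tested, 7 were higher (29.2%) and 1 was lower (4.17%) at an unadjusted p under 0.05. The shares over all genes were 2.78% and 2.77%. The median difference of the list was 0.36. Without KO 2 the median was 0.65 with 10 higher, and without WT 4 it was 0.20 with 3 higher. There were likewise 3 higher without WT 5 or without KO 6. WT 4 had the lowest Socs2 of all livers. Cyp2c69, a female-biased P450, had 11133 (WT 5), 9021 (WT 3) and 7058 (WT 1) normalized counts in the high WT livers and 789 (WT 6), 1758 (WT 2) and 54.8 (WT 4) in the low ones. KO 5 and KO 6 had 1475 and 3601, KO 2 had 35.6, and the low KO livers had 181 (KO 3), 75.1 (KO 4) and 149 (KO 1). The difference was 3.28 (95% interval 0.93 to 5.64, limma adjusted p = 0.784). DESeq2 called it with an adjusted p of 0.0225.

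For A1bg, which encodes a plasma glycoprotein, the WT classes lay far apart. Its high WT livers had 1627 (WT 5), 673 (WT 3) and 1860 (WT 1), and its low WT livers had 57.2 (WT 6), 71.9 (WT 2) and 58.6 (WT 4). In KO all values were low, with 43.8 in KO 6 and 0 to 4.25 in the other 5 livers. The difference was 3.20 (SE 0.73, limma adjusted p = 0.643) and DESeq2 called it with an adjusted p of 0.00872. Cyp3a16 had a difference of 2.15, and its WT classes did not overlap. Cyp17a1, a steroid hydroxylase of the same list, differed by -0.90. Several of these P450 genes have near copies that can share reads.

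Male-biased genes gave no opposite pattern. Of 28 listed, 16 had enough signal to be tested, with a median of 0.00390. By limma, 3 were higher (18.8%, against 2.78% of all genes) and 0 lower (against 2.77%) at an unadjusted p under 0.05. Without KO 2 there were 6 of 17 higher (35.3%, against 4.06% of all genes), and without WT 1, WT 4, WT 5 or KO 6 there were 0. Hsd3b5, a steroid dehydrogenase, had 55.6 to 93.6 in the high WT livers and 3.82 to 31.5 in the low ones, while the KO classes overlapped. Slco1a1, an organic anion transporter, had 41.9 to 134 in the high WT livers and 1.27 to 9.72 in the low ones.

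Outside the hormone lists, the classes were compared for genes in which high and low livers did not overlap in WT or in KO. There were 40 such genes with higher values in the high class (0.295%) and 36 with lower values (0.265%). With only 3 livers per class and genotype, chance alone separates some genes, at a share close to that seen here in each direction. The counts alone thus do not show more separation than chance gives. Separation is therefore used here to choose genes and is not the result of a test. Those named here are from the 12 in each direction with the smallest unadjusted p among those with a mean of at least 50, and none passed in limma. Klf10 encodes a Krüppel-like transcription factor that is induced early by several signals. It measured 2137 (WT 5), 1769 (WT 3) and 2772 (WT 1) against 1134 (WT 6), 1039 (WT 2) and 1302 (WT 4). In KO it measured 1503 (KO 5), 1255 (KO 6) and 667 (KO 2) against 477 (KO 3), 385 (KO 4) and 431 (KO 1). The difference was 1.13 (SE 0.18, limma adjusted p = 0.222; DESeq2 adjusted p = 5.98e-06). Without KO 2 it was 1.26 and passed in limma, with an adjusted p of 0.0383. Klf10 did not pass in limma with any other single library left out.

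Ablim3, which encodes an actin-binding LIM protein, was likewise without overlap in either genotype. Its values were 582 (WT 5), 528 (WT 3) and 673 (WT 1) against 217 (WT 6), 308 (WT 2) and 175 (WT 4). The KO livers had 244 (KO 5), 195 (KO 6) and 121 (KO 2) against 109 (KO 3), 78.0 (KO 4) and 95.3 (KO 1). The difference was 1.16 (SE 0.19, limma adjusted p = 0.222), and without KO 2 it was 1.31 and passed with an adjusted p of 0.0305. Klf10 and Ablim3 were the 2 genes that limma called without KO 2 (0.0147% of 13568 tested). Neither passed in limma with any other single library left out.

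Slc25a30, a mitochondrial carrier gene, separated all 6 high from all 6 low livers. It had 944 (WT 5), 251 (WT 3) and 307 (WT 1) in WT and 244 (KO 5), 121 (KO 6) and 135 (KO 2) in KO. The low livers had 93.4 (WT 6), 87.4 (WT 2) and 57.3 (WT 4), and 73.1 (KO 3), 63.5 (KO 4) and 50.8 (KO 1). The difference was 1.88 (SE 0.34, limma adjusted p = 0.222; DESeq2 adjusted p = 2.12e-05). Taken against the level of Socs2 itself in place of the class, Slc25a30 gained 0.73 per doubling of Socs2 (limma adjusted p = 0.0832). Snhg1, a noncoding host of small nucleolar RNAs, also separated all 12 livers, at 481 to 563 against 389 to 441, with a difference of 0.33.

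Other genes with higher values in the high class were Dirc2 (0.47), which encodes a lysosomal membrane transporter, and Nlrp12 (0.93), a gene of the NLR family that restrains inflammation. Nlrp12 separated all 12 livers, with 274 to 547 in the high class and 94.3 to 273 in the low class. Further ones were Eif4ebp3 (0.95), a repressor of translation initiation, and Sra1 (0.19), a steroid receptor coactivator. Both lie close together on opposite strands, at chr18:36664060-36665917 and chr18:36666681-36670815, and whether they share reads was not tested. Zfp655 (0.32), a zinc finger gene, and Cep85 (0.30), a centrosome gene, were also among the 12. DESeq2 called Dirc2, Nlrp12, Eif4ebp3 and Sra1 (adjusted p = 0.00248, 0.00841, 0.0225 and 0.0236).

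**Figure D4:**
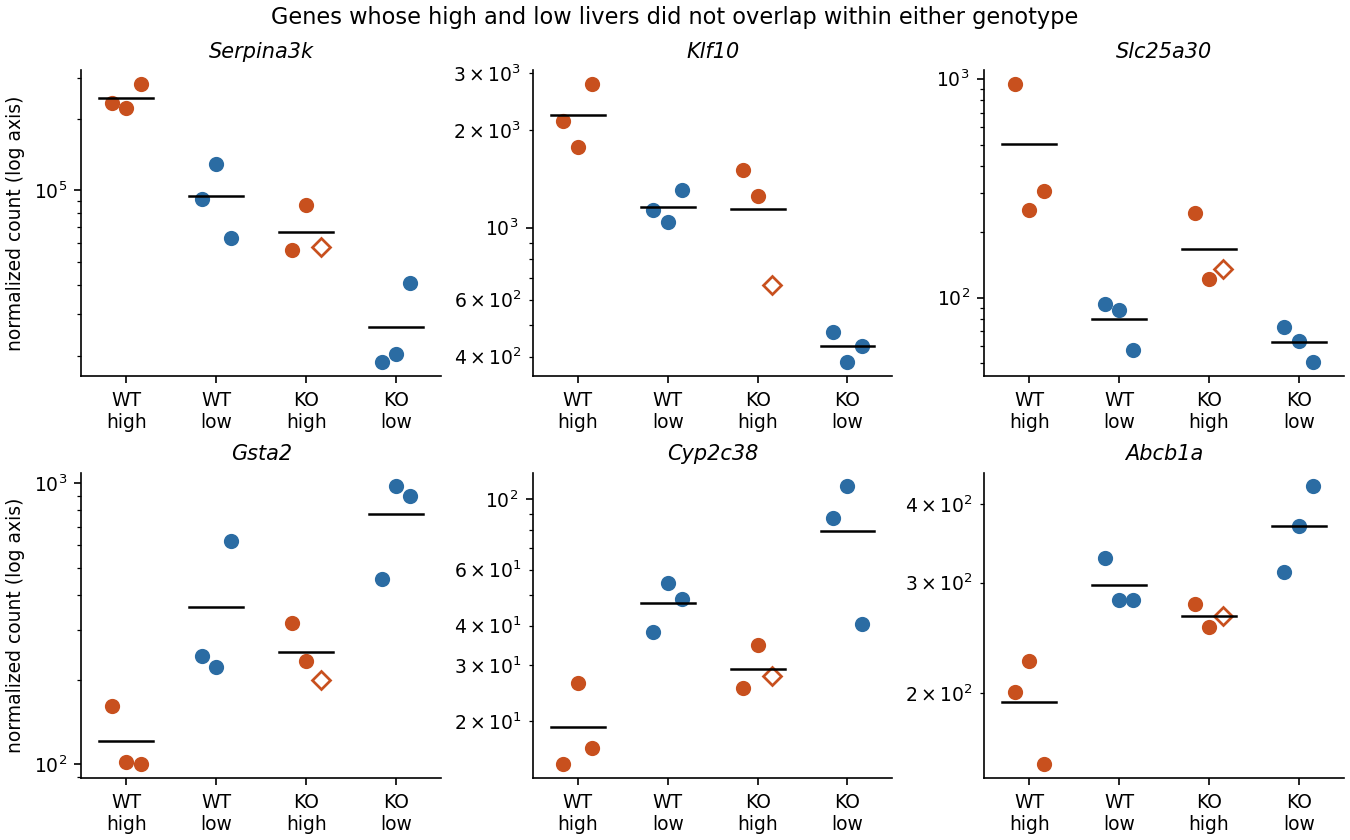
Normalized counts on a log axis of Serpina3k, Klf10, Slc25a30, Gsta2, Cyp2c38 and Abcb1a by genotype and Socs2 class, with 1 point per liver, a line at the mean of each 3 livers and an open diamond for KO 2. The high and low classes do not overlap within WT or within KO in any of the 6 panels.

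Among the 12 genes so chosen with lower values in the high class, Gsta2 differed most. It encodes an alpha class glutathione transferase and has near copies. Its values were 161 (WT 5), 101 (WT 3) and 99.9 (WT 1) against 242 (WT 6), 222 (WT 2) and 619 (WT 4). The KO livers had 317 (KO 5), 233 (KO 6) and 200 (KO 2) against 457 (KO 3), 972 (KO 4) and 901 (KO 1). The difference was -1.51 (SE 0.27, limma adjusted p = 0.222; DESeq2 adjusted p = 2.12e-05). Abcb1a, the drug efflux pump P-glycoprotein, had 154 to 277 in the high class and 282 to 427 in the low class, with a difference of -0.55. Adam11, a gene of the ADAM family, differed by -1.07.

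Fyb (-0.41), an adaptor of T cells and myeloid cells, Arhgap4 (-0.38), a GTPase activator of blood cells, and Csf3r (-0.46), the granulocyte colony-stimulating factor receptor, were also among the 12. Csf3r had 108 to 149 in the high class and 150 to 214 in the low class, without overlap over the 12 livers. The rest were Pgap2 (-0.28), which acts in lipid anchor maturation, Tstd1 (-0.50), Polr2h (-0.24), a shared RNA polymerase subunit, Pla2g15 (-0.27), a lysosomal phospholipase, Anapc15 (-0.25), a subunit of the anaphase-promoting complex, and Ccdc142 (-0.41). DESeq2 called Abcb1a, Fyb, Adam11, Arhgap4, Pgap2 and Tstd1 (adjusted p = 0.00391, 0.00704, 0.00449, 0.0179, 0.0236 and 0.0466).

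Markers of blood-derived cells did not share one direction. Of 12 tested erythroid markers 9 were higher in the high class (median 0.18), 0 of them at an unadjusted p under 0.05. Without KO 2, 1 was higher at that level. With any 1 library left out, 6 to 10 were higher, 0 to 4 of them at that level. Of 13 tested Kupffer cell and macrophage markers, 12 were lower in the high class, 4 of them at an unadjusted p under 0.05 (30.8%, against 2.77%), and the median was -0.14. That number of 4 was 2 without WT 1, WT 2, WT 5 or KO 4. Vsig4 (-0.35), Lyz2 (-0.43), Csf1r (-0.33) and Cd5l (-0.37) were those 4. The summed normalized count of the Kupffer list was 24469 to 35093 in the high class and 30716 to 40742 in the low class, and none of its tested members was at 0. The neutrophil list had 10 of 12 markers lower and a median of -0.44, with sums of 774 to 1918 in the high class and 825 to 6806 in the low class. This direction came from KO, where 0 of 12 were higher (median -1.33), while in WT 11 of 12 were higher (median 0.46). The highest neutrophil sum was that of KO 4, and without KO 4 the list had 6 higher and 6 lower with a median of -0.0094. Of 13 tested lymphocyte markers 11 were lower, with sums of 845 to 1353 and 1109 to 1485, but without KO 2 only 7 were lower and the median moved from -0.22 to -0.062. All 14 endothelial markers were higher, 3 of them at an unadjusted p under 0.05 (21.4%, against 2.78%), with Clec4g at 0.50 and a median of 0.27. Without KO 1, 12 of 14 were higher and the median was 0.12, and the number at that level was 1 without WT 3, WT 6, KO 5 or KO 6 and 5 without KO 2 or WT 2. The part of these cell types in the differences of Fyb, Arhgap4, Csf3r, Sirpa and Ptpn6 was not tested.

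Immediate early genes, which respond to growth signals within minutes, had 4 of 29 tested members higher and 0 lower at an unadjusted p under 0.05 by limma (13.8%, against 2.78%), and 2 to 8 higher with any 1 library left out. Myc had 2695 (WT 5), 659 (WT 3) and 502 (WT 1) in the high WT livers and 119 (WT 6), 168 (WT 2) and 75.2 (WT 4) in the low ones. KO 5 and KO 6 had 612 and 1079, KO 2 had 81.2, and the low KO livers had 77.7 to 173. The difference was 2.35 (95% interval 1.01 to 3.69, limma adjusted p = 0.749; DESeq2 adjusted p = 0.00671). Ier3 (0.66) did not overlap in either genotype, and Jun (0.62) did not overlap in WT.

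Of genes induced by amino acid stress, 3 of 22 were higher at an unadjusted p under 0.05 (13.6%, against 2.78% of all genes). At that level 1 was lower (4.55%, against 2.77%). Nupr1 (0.85) and Chac1 (1.58) were among the higher ones, and without WT 2 there was 1 higher. Among fasting genes 2 of 23 were higher (8.7%, against 2.78%) and 0 lower (against 2.77%) at that level by limma. Lpin1 (1.27), a phosphatidate phosphatase, was 1 of the 2, and with any 1 library left out there were 1 to 4 higher. For periportal genes, which mark hepatocytes near the portal vein, 5 of 19 were lower at an unadjusted p under 0.05 (26.3%, against 2.77%). They included Gls2 (-0.33) and Pigr (-0.41), and the list's median was -0.10. Without WT 4, KO 2, KO 3 or KO 4 there were 2.

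**Figure D5:**
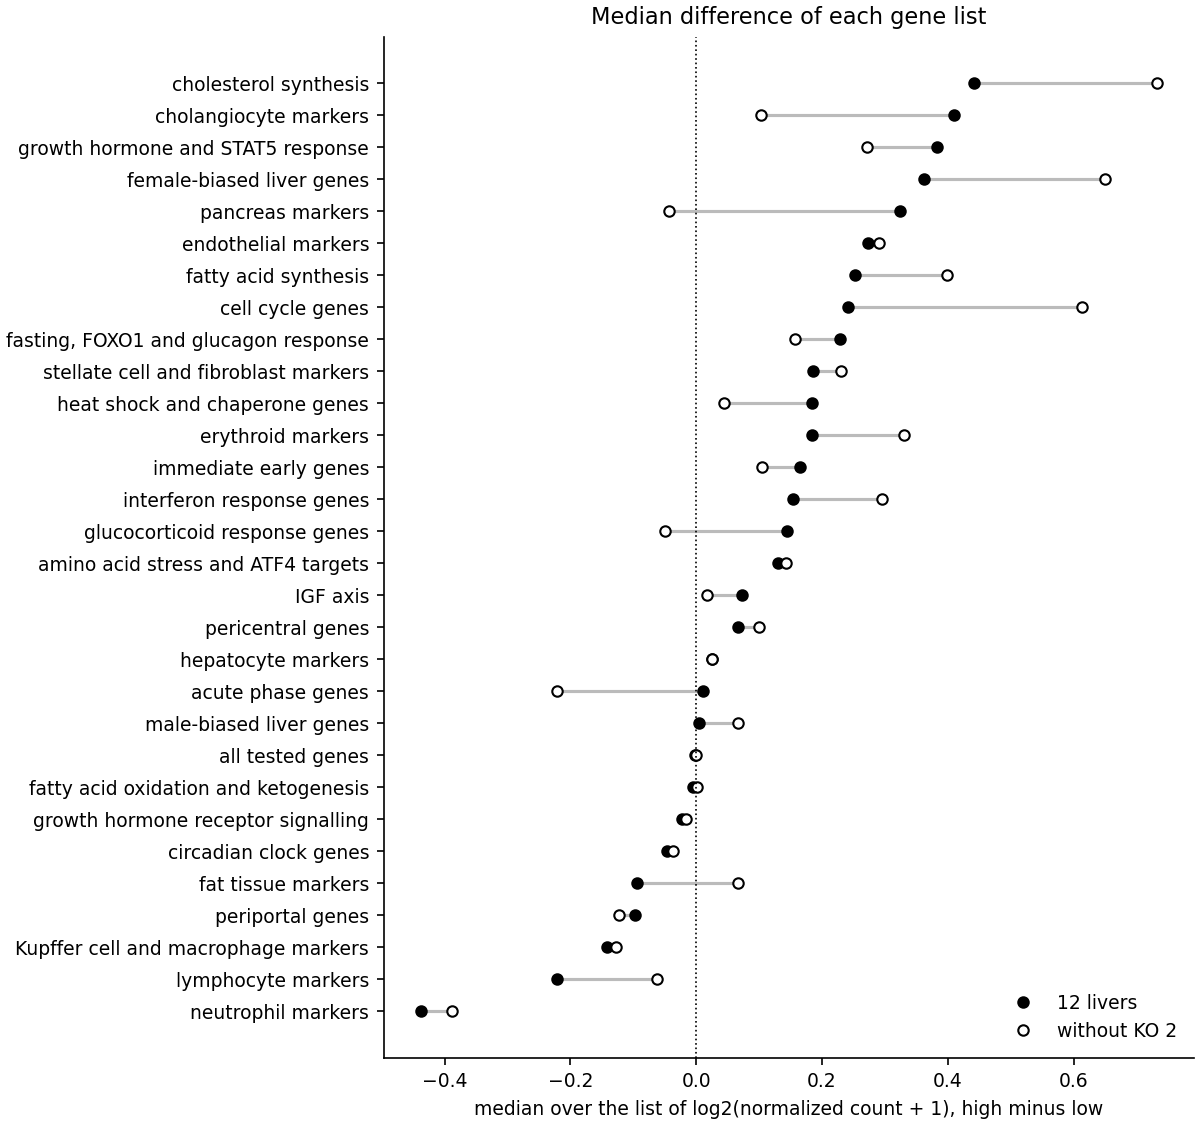
Median over each gene list of the difference between high and low Socs2 livers on the scale of log2(normalized count + 1), with all 12 livers (filled) and without KO 2 (open). The growth hormone list is at 0.38 and 0.27, the cholesterol synthesis list at 0.44 and 0.73, and all tested genes lie at 0.

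The comparison was repeated with classes formed by Cish in place of Socs2, which exchanged KO 2 and KO 3 and brought other gene groups forward. By limma no gene had an adjusted p under 0.05 (0 genes, smallest adjusted p 0.124). Apart from Cish and Socs2, 764 genes were higher (5.63%) and 608 lower (4.48%) at an unadjusted p under 0.05. The growth hormone list, without Cish, had 9 of 25 members higher (36%) and 3 lower (12%) at that level. Among cholesterol synthesis genes, which supply sterols to the hepatocyte, 22 of 25 were higher at that level (88%), where the Socs2 classes gave 0. Of 30 cell cycle genes 25 were higher (83.3%), where the Socs2 classes again gave 0. Regardless of p, 22 of the 25 cholesterol synthesis genes and 28 of the 30 cell cycle genes were higher by Socs2 class too. Without KO 2 the Socs2 classes gave 4 of 25 (16%) and 8 of 30 (26.7%) at that level, against 4.06% of all genes. Acute phase genes, which the liver secretes in inflammation, had 12 of 27 members lower (44.4%). The Socs2 classes gave 0 lower with all libraries and 8 of 27 (29.6%) without KO 2, against 4% of all genes.

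The level of Socs2 was also used as a continuous term within genotype. limma again called 0 genes, with a smallest adjusted p of 0.0807, and 851 genes had an unadjusted p under 0.05, 472 with a positive slope (3.48%) and 379 with a negative one (2.79%). Of the 26 growth hormone response genes 12 had a positive slope at that level (46.2%) and 1 a negative one. Of the 24 female-biased genes 12 had a positive slope (50%). WT 5 and WT 4 lay farthest from the mean log2 Socs2 of their genotype, at 2.36 and -3.03, and so weigh most on these slopes. KO 2 lay at 0.083 and weighs little. Slopes with single libraries left out were not computed. The slope of Igf1 was 0.41 per doubling of Socs2 (limma adjusted p = 0.360), that of Myc 1.04 and that of Cyp2c69 1.57.

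Whether the difference between the classes depended on genotype was tested with an interaction term. Of 13568 genes, 1 passed (0.00737%), Rgs16, which encodes a regulator of G protein signalling, at chr1:153740349-153745468 on the plus strand. Its WT values were 2983 (WT 5), 3393 (WT 3) and 3504 (WT 1) in the high class and 5669 (WT 6), 4775 (WT 2) and 4168 (WT 4) in the low class. The KO values were 6272 (KO 5), 3786 (KO 6) and 1752 (KO 2) against 169 (KO 3), 176 (KO 4) and 267 (KO 1). The high livers were thus all lower than the low ones in WT and all higher in KO. The difference was -0.56 in WT and 4.11 in KO, 4.67 apart (SE 0.51, limma adjusted p = 0.0199). The call held without KO 1, KO 2 or KO 5 and was lost without any other single library, at adjusted p of 0.0828 to 0.123. It was also lost with runs of animal numbers as a block (limma adjusted p = 0.0510), with the continuous Socs2 level (0.620) and with classes by Cish (0.985). For Cish the WT and KO differences of 2.93 and 1.12 were not shown to differ (limma, adjusted p = 0.9998 for the interaction).

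Genes that differ between KO and WT were counted again with the class in the fit. limma called 613 genes (4.52%), 245 higher and 368 lower in KO, against 602 without the class. This count ranged from 224 without KO 4 to 820 without WT 6. Serpina3k and Klf10, which separated the classes, were lower in KO by 1.88 and 1.22 on the log2 scale (adjusted p = 0.00181 and 0.00435).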

How the data were processed

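Liver RNA of 12 female mice, 6 WT and 6 KO, was profiled from total RNA, 1 library per animal number. The authors deposited signal values per gene, namely normalized counts in which reads had been divided by 1 factor per library. Alignment and counting involved STAR and featureCounts, with FastQC, DESeq2 and the build mm10 also listed, per the submitters' processing notes. Since neither annotation nor strand setting is given there, genes that overlap on opposite strands are uncertain. In every library 100% of values were whole multiples of 1 step to a tolerance of 0.001 reads, so whole reads were recovered, 21769795 to 31296485 per library, which set the counting error of low genes. No column was without a sample. The authors' own deposited comparison was not used here. Animals were numbered in accession order within genotype.

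Libraries were ranked by Socs2 within genotype, and the highest 3 formed the high class. Socs2 was left out of all tests in which it formed the classes or the continuous term. In the fit with classes by Cish, Cish was left out and Socs2 stayed in. limma 3.58.1 (R 4.3.3) was fitted with a mean-variance trend to log2(normalized count + 1), with genotype and class as terms, for the 13568 genes averaging 10 or more. P-values are two-sided and Benjamini-Hochberg adjusted with a threshold of 0.05. A fold on this scale understates the change of low genes. Cish was also tested by exact permutation of the class within genotype. edgeR 4.0.16 and DESeq2 1.42.0 on recovered reads were alternatives, as were pseudocounts of 0.5 and 10, no filter or a minimum mean of 50, equal totals, equal upper quartiles, runs of animal numbers as a block, classes by Cish, the Socs2 level as a continuous term, omission of the middle pair of each genotype and of single libraries. A run is a stretch of animal numbers with no gap of 10 or more. Run 1 held WT 1 and KO 1, and run 2 held WT 2 and WT 3. Run 3 held WT 4, KO 3 and KO 4 of the low class and KO 2 of the high class. Run 4 held WT 5, KO 5 and KO 6 of the high class and WT 6 of the low class. Class and run are thus partly tied, and the labels do not say what a run stands for. Chosen after seeing the data were omissions of WT 6 with KO 2 and of KO 2 with KO 3, and list counts under several of these alternatives. The scripts were tested on simulated data.

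The members and 29 gene lists were chosen with earlier results of these data known. Named genes are Cish, the tested members of the 3 growth hormone and IGF lists, up to 4 members with the smallest p of each other list, and, as no gene passed, 12 per direction with the smallest p among genes with a mean of at least 50 whose classes overlap in neither genotype, leaving out Gm, Rik and ps symbols. One of the 12 higher genes is not reported here. Reg1, Adipoq, Ttr and Krt19 were chosen after their values were seen. Positions are from GENCODE M21 and sequences from RefSeq (GRCm38.p6).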

Additional observations from a re-analysis of the deposited data

Results flagged for a closer look

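A sample is listed here when its gap to the nearest other sample of its genotype exceeded Dixon's 95% critical value for 6 samples. This was examined for the WT and the KO livers of each gene compared between the classes here. There were 132 groups in all, of which 13 met it. Socs2, Lcorl, Ttr, Serpina3n, Reg1, Krt19 and Adipoq were not examined, although Reg1 and Krt19 were far highest in KO 2 and Adipoq in WT 6. For normally distributed values, chance flags about 1 in 20 groups. Normalized counts were used here without a log, so the rate by chance may be different.

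WT 5, the liver with the most Socs2, was the highest WT liver for 4 genes. It read 944 normalized counts of Slc25a30 with the next WT liver at 307, 2695 of Myc with the next at 659, 915 of Jun with the next at 483, and 468 of Chac1 with the next at 169.

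KO 6 was the highest KO liver for 3 genes at low counts. It read 43.8 of A1bg with the next at 4.25, 37.4 of Hsd3b5 with the next at 11.9, and 16.4 of Slco1a1 with the next at 4.25.

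KO 2 was the highest KO liver for Stat5b, at 2627 with the next at 1851, and for Socs3, at 1059 with the next at 517. Its acute phase list also had the highest score of the 12 livers, 1.80 on the log2 scale relative to its genotype, and the part of this in the 2 values was not tested. KO 4 was the highest KO liver for the macrophage gene Cd5l, at 10062 with the next at 7229.

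Gsta2 was highest among WT livers in WT 4, at 619 with the next at 242. Lpin1 was lowest among WT livers in WT 6, at 3148 with the next at 16205, and highest among KO livers in KO 5, at 18418 with the next at 6611.

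The effect of the class differed between genotypes for Rgs16, whose KO difference exceeded the WT difference by 4.67 on the log2 scale in the interaction test of limma.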

How the results depend on the processing

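Over 66 results of single genes and their alternatives, 1710 comparisons were made. In 1653 the direction and the side of the threshold were those reported. A further 24 passed a threshold only under the alternative, 12 lost it and 21 changed sign. Only Rgs16 passed with all libraries, so the 12 losses were all its own. For the other genes an unchanged side means that the threshold was passed in neither fit. The count of genes between high and low livers was 0 in every planned limma and edgeR setting with all 12 libraries, 28 by DESeq2, 0 to 2 when 1 library was left out, and 1 (Ablim3) without KO 2 and KO 3. The interaction count of 1 became 0 with runs of animal numbers as a block, 13 with the middle pairs left out, 14 with classes by Cish, 0 with the continuous Socs2 level, and 0 to 2 with 1 library left out. Genotype calls were 1403 by DESeq2, 245 with the block of animal numbers, 1042 with classes by Cish, and 224 to 820 with 1 library left out. The Cish difference was 2.68 with the middle pairs left out, where the exact p of 0.0556 is the smallest that 36 arrangements can give, and 1.72 to 2.47 with 1 library left out. The changes of sign were in 5 genes. Ghr was 0.0044 by edgeR, 0.0041 by DESeq2, 0.14 with the middle pairs left out, 0.14 with classes by Cish, 0.028 per doubling of Socs2, 0.12 without WT 6 and KO 2, 0.072 without KO 2 and KO 3, and -0.11 to 0.11 with 1 library left out. Stat5b was -0.015 with the middle pairs left out and -0.087 with classes by Cish. Igfbp1 was -0.11 with the block of animal numbers, -0.45 with classes by Cish, -0.13 without KO 2 and KO 3, and -0.14 to 1.14 with 1 library left out. Igfbp3 was -0.026 with the block, and Igfbp2 was 0.014 per doubling of Socs2. The cause was not tested. No paired analysis was possible because the labels give no replicate numbers shared by WT and KO.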

Other observations

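Among the KO livers, the cholesterol synthesis and cell cycle lists divided the animals in the same way as Cish did. The cholesterol synthesis score is the mean over genes of the log2 difference from the mean of the liver's genotype. KO 5 scored 1.15, KO 6 scored 1.45 and KO 3 scored 1.02, the 3 KO livers with the most Cish. The remaining livers scored -1.34 (KO 2), -1.09 (KO 4) and -1.19 (KO 1). In WT the score lay between -0.28 and 0.30, and WT 4, the liver with the least Cish, was at the top of that range. The cell cycle score was 0.41, 0.81 and 0.87 in KO 5, KO 6 and KO 3, against -1.28, -0.12 and -0.70 in KO 2, KO 4 and KO 1. These are values of single livers, and the grouping was not tested.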
